A study of Arabidopsis thaliana with 4 samples.

Results

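The xyloglucan endotransglucosylase/hydrolase (XTH) family of Arabidopsis thaliana was followed gene by gene in seedlings that overexpressed the light-sensing domain of cryptochrome 1 or a point mutant of it. The family comprises the 33 genes XTH1 to XTH33, chosen by locus code from the 27416 gene models measured, and all 33 were present in the files. The labels describe whole seedlings of the Col-0 ecotype in the cry1 mutant background, without the endogenous blue-light receptor CRY1, that carried a transgene under the 35S promoter, which is active in most plant tissues. In the CNT1 group (2 libraries) the genotype was 35S::CNT1-NLS-YFP;cry1, the photolyase-like N-terminal part of CRY1 joined to NLS, a nuclear import signal, and the fluorescent tag YFP. In the CNT1-G283E group (2 libraries) it was 35S::CNT1-G283E-NLS-YFP;cry1, the same fusion with the G283E substitution. Sown on a sucrose medium, seeds had 3 days of cold and 12 h of white light before growth in blue light of 15 μmol/m2/s for 4 days, and the labels give 4.5 days as growth time. The sources used here do not say whether each genotype was 1 transgenic line or whether replicates were grown apart, and the p-values rest on a spread between libraries that may be technical only.

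Xyloglucan is the main hemicellulose of the primary wall in dicots, where it coats cellulose microfibrils. XTH enzymes cut a xyloglucan chain and rejoin the cut end to another chain (transglucosylation) or to water (hydrolysis), and so act on walls of expanding cells. The numbering of the family follows its phylogeny, with XTH1 to XTH11 commonly called group I, XTH12 to XTH26 group II and XTH27 to XTH33 group III. Within group III, XTH31 and XTH32 form the branch in which hydrolase activity is known. Cryptochrome signalling in blue light restrains hypocotyl elongation, and several XTH genes are known as auxin-, brassinosteroid- or shade-responsive growth genes.

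The coding sequences of the members differ widely. Over the 528 pairs of members, coding sequences in the TAIR10.1 annotation were 45.4% to 89.4% identical, with a median of 55.6%. A stretch of 10 codons around the catalytic glutamates, by which the family is recognised, was found by its residue pattern in 31 of 33 members. It is shown for members that rose, fell or led their group, 5′ to 3′ on the coding strand in TAIR10.1 (RefSeq), with the bases that differ from XTH22 in capitals.
XTH22: tgggacgagatagatttcgagtttttaggg
XTH17: tgggaTgagatCgatttcgagttCttGggA
XTH24: tgggaTgagatTgatttTgagttCttGggT
XTH4: CATgacgagatagaCttTgagttCCtTggA
XTH6: AgAgacgagCtagatttTgagttCttGggA
XTH31: CACgaTgagGtCgatAtcgagtttCtaggg
The 12 members whose stretch begins with the tryptophan codon tgg are all in group II, and of these 0 were called higher in CNT1, 8 were called lower and 4 were not called, where 31.1% of all genes tested were called higher and 29.0% lower by limma at an adjusted p under 0.05. Among the 15 that begin with a histidine codon, 3 were called higher, 6 lower and 2 not called, and 4 were not tested. The 4 that begin with an arginine codon, XTH6, XTH7, XTH8 and XTH10, divided evenly, 2 higher and 2 lower. XTH9 and XTH11, in which the residue pattern was not found, are in none of these classes, and both were called higher. XTH25, counted among the 8 called lower, passed the low-value filter described below only through the CNT1-G283E libraries. The difference between these codon classes was not tested.

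Values are RPKM (reads scaled to gene length and library size), which allows levels of different genes to be compared, and each log2 fold change is the CNT1 mean less the CNT1-G283E mean of log2(RPKM + 1). limma was run on all genes that reached 1 RPKM in 2 or more libraries, and a gene was called at an adjusted p under 0.05. The library denominators recovered from the values were 24436863 to 28524534 reads. CRY1 (AT4G08920), the gene of the transgenes, was read at 823 and 825 RPKM in CNT1 and at 1152 and 1036 RPKM in CNT1-G283E, a value that does not separate transgene from endogenous transcript. It was called lower in CNT1 (log2 fold change -0.41, limma adjusted p = 0.000534). Green-tissue markers (RBCS1A, LHCB1.3, LHCB2.1, CA1 and RCA) were detected in all libraries, and all 5 rose, their summed level going from 5402 and 5548 RPKM in CNT1-G283E to 24557 and 24669 RPKM in CNT1. Xylem markers fell in 6 of 6 and phloem markers in 4 of 4 cases, by a median log2 fold change of -0.89 and -0.81. Among all genes tested, 31.1% rose and 29.0% fell. Of 4 epidermis markers 2 fell and 1 rose, of 3 guard cell markers 1 fell, and no marker in any list was at 0. The part of these differences between tissues in the values of the XTH genes was not tested.

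Expression of the family was lower in CNT1 as a sum, and the direction differed between members. Of the 29 members that passed the low-value filter, 16 fell (55.2%) and 7 rose (24.1%) in CNT1, while 6 were not called. In the same test 29.0% of all 19201 genes fell and 31.1% rose, so that 60.0% of all genes were called against 79.3% of the tested members. Falls of at least 2-fold in mean RPKM were called for 11 members (37.9%), against 7.89% of all genes, and rises of that size for 2 members (6.90%), against 5.56% of all genes. The median log2 fold change of the tested members was -0.31, and that of all genes tested was 0.025. XTH25 passed the filter only through the CNT1-G283E libraries. In whole seedlings, fewer cells of a type and less RNA per cell cannot be told apart.

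**Figure D1:**
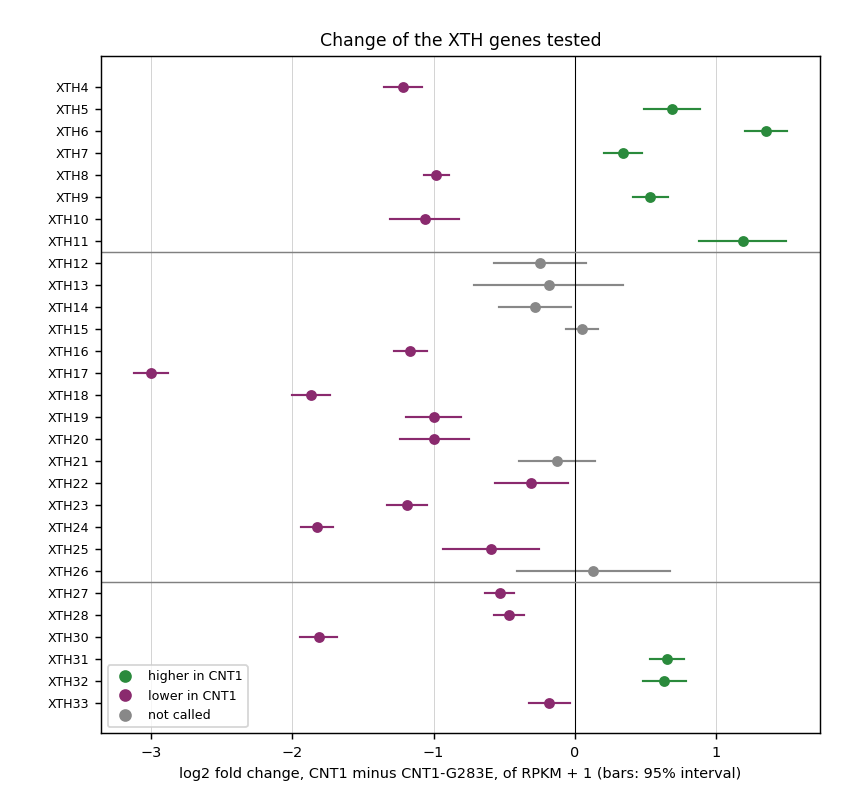
Log2 fold change (x axis, CNT1 minus CNT1-G283E, of RPKM + 1) of each of the 29 tested XTH genes (y axis), with bars for the 95% interval from limma and grey lines between groups I, II and III. The 7 rises lie among XTH5 to XTH11 and at XTH31 and XTH32, and XTH17 has the lowest value at -3.002.

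**Figure D2:**
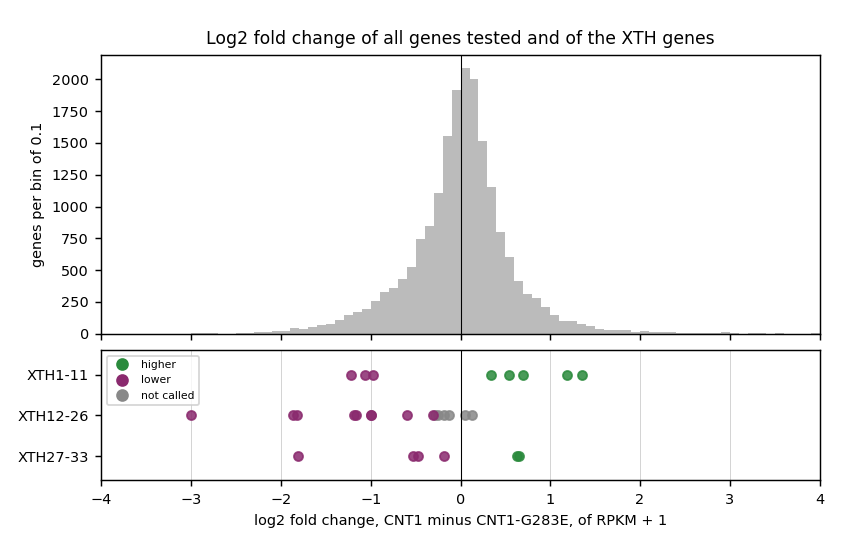
The upper panel counts all 19201 genes tested by log2 fold change (x axis) in bins of 0.1, values beyond 4 being placed in the outermost bins, and the lower panel places each tested XTH gene on the same axis by number range. No called member of XTH12 to XTH26 lies right of 0, and XTH17 lies in the left tail of all genes.

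Summed over the 33 members, the libraries held 4115 and 4107 RPKM in CNT1 and 7376 and 7544 RPKM in CNT1-G283E. These sums were 0.559% and 0.560% of all RPKM in CNT1, and 1.02% and 1.05% in CNT1-G283E. The family sum was thus 1.81-fold lower in CNT1 (4111 ± 5.39 against 7460 ± 119 RPKM, SD, n = 2 each), with no overlap between the groups. XTH4, XTH15 and XTH24 together made up 69.4% and 69.8% of the family sum in CNT1 and 65.1% and 64.0% in CNT1-G283E. XTH17 and XTH18 together went from 16.8% and 18.1% of the sum in CNT1-G283E to 5.59% and 5.41% in CNT1. The 7 members that rose held 11.8% and 11.7% of the sum in CNT1 and 4.73% and 4.40% in CNT1-G283E.

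**Figure D3:**
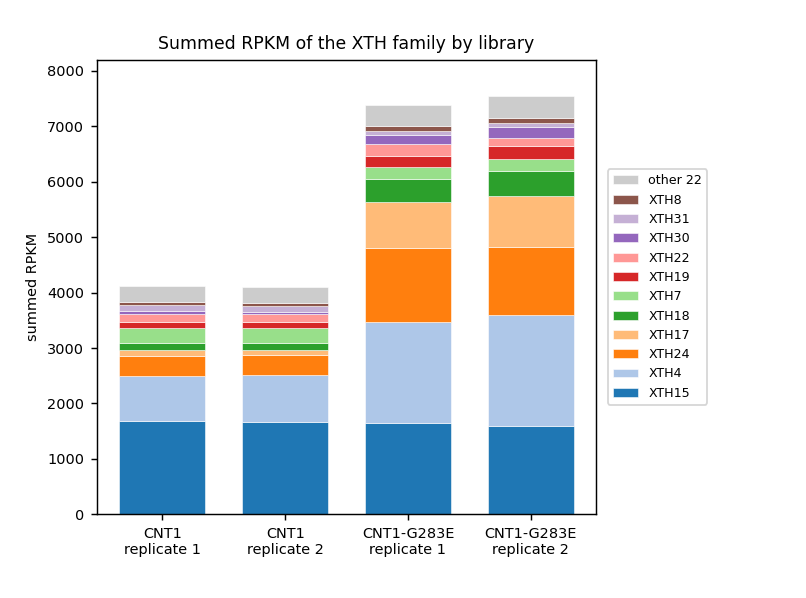
Summed RPKM of the XTH family (y axis) in each of the 4 libraries (x axis), divided by gene, with the other 22 members together in grey. The bars reach 4115 and 4107 RPKM in CNT1 and 7376 and 7544 RPKM in CNT1-G283E, and the XTH15 segment has nearly the same height in all 4.

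XTH15 (AT4G14130, chromosome 4, 8137020 to 8138392 in TAIR10.1), known as a shade-induced gene of petiole growth, was the highest member in CNT1 and was not called. It was read at 1685 and 1667 RPKM in CNT1 and at 1647 and 1585 RPKM in CNT1-G283E. Levels in the groups lay close together without overlapping, and the log2 fold change was 0.05, with a 95% interval of -0.06 to 0.17 (limma adjusted p = 0.379). XTH15 made up 40.8% of the family sum in CNT1 and 21.7% in CNT1-G283E. Its gene overlaps AT4G14120 on the opposite strand by 382 bases in TAIR10.1. That neighbour was at 0.526 to 0.995 RPKM in the 4 libraries, far below XTH15.

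XTH16 (AT3G23730) is the member closest to XTH15 in coding sequence, at 80.5% identity, and it fell. XTH16 was read at 31.2 and 29.2 RPKM in CNT1 and at 68.0 and 69.6 RPKM in CNT1-G283E. Both CNT1 libraries were low, the level was 2.28-fold lower, and the log2 fold change was -1.16 ± 0.049 (SE, limma adjusted p = 8.08e-07). The longest run of bases that XTH15 and XTH16 transcripts share is 26 bases.

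XTH17 to XTH20, which are known from roots, all fell. XTH17 (AT1G65310, chromosome 1, 24257054 to 24258506 in TAIR10.1), also known as a shade-induced gene, had 109 and 106 RPKM in CNT1 and 827 and 907 RPKM in CNT1-G283E. The CNT1-G283E libraries were far above the CNT1 libraries, with an 8.08-fold lower mean in CNT1 and a log2 fold change of -3.002 ± 0.051 (SE, limma adjusted p = 3.22e-08). Only 9 of the 19201 genes tested had a log2 fold change at or below that of XTH17, itself included. XTH18 (AT4G30280, chromosome 4, 14825757 to 14827211) was read at 121 and 116 RPKM in CNT1 and at 413 and 461 RPKM in CNT1-G283E. Its mean was 3.68-fold lower in CNT1, with a log2 fold change of -1.87 ± 0.058 (SE, limma adjusted p = 2.26e-07).

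XTH19 (AT4G30290), the tandem neighbour of XTH18, was nearly level with XTH17 and XTH18 in CNT1, at 106 and 106 RPKM, and was at 193 and 236 RPKM in CNT1-G283E. The log2 fold change of XTH19 was -1.0 ± 0.083 (SE, limma adjusted p = 2.85e-05). XTH20 (AT5G48070) was lowly expressed, at 1.66 and 1.87 RPKM in CNT1 and at 4.71 and 4.30 RPKM in CNT1-G283E, and was 2.56-fold lower in CNT1 (log2 fold change -0.99 ± 0.106, SE, limma adjusted p = 0.000107). The 1 added before the log makes the log2 fold change of XTH20 smaller than its ratio of means. Over the alternative fits it ran from -1.35 to -0.94. In CNT1 the XTH17, XTH18 and XTH19 levels thus lay within 106 to 121 RPKM, whereas in CNT1-G283E they were spread from 193 to 907 RPKM. Whether the folds of these paralogs differ from each other was not tested, but the 95% intervals of the log2 fold change were -3.12 to -2.88 for XTH17, -2.0 to -1.73 for XTH18 and -1.19 to -0.81 for XTH19.

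The genes of this quartet are close relatives, with 79.6% to 87.6% coding identity between pairs, and XTH18 and XTH19 share a run of 68 bases. How reads matching several genes were assigned is not given in the sources used here, which leaves their individual values uncertain. XTH17 on chromosome 1 and XTH18 on chromosome 4 were found to share an identical run of 73 bases directly before their annotated gene starts. The 200 bases before the starts of all members of the quartet are shown for comparison, 5′ to 3′ on the gene's strand in TAIR10.1, with the shared run in capitals.
XTH17, chr1:24256854-24257053, plus strand: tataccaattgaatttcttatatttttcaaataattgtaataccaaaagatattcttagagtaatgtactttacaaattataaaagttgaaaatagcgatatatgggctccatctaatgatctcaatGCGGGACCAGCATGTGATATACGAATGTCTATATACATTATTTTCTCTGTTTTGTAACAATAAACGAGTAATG
XTH18, chr4:14827212-14827411, minus strand: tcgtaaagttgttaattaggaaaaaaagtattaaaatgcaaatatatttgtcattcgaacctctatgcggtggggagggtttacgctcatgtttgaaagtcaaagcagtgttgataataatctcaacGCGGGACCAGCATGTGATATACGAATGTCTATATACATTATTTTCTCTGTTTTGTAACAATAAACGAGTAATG
XTH19, chr4:14830225-14830424, minus strand: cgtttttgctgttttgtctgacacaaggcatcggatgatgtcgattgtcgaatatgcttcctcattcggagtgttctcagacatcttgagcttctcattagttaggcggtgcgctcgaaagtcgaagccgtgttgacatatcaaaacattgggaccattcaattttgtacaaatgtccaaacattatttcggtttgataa
XTH20, chr5:19481697-19481896, plus strand: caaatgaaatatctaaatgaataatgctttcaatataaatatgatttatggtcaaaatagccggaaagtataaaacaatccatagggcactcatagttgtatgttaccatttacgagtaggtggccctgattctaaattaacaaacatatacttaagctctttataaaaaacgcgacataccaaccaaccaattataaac
Of the 528 pairs of members, the next longest identical run in these 200 bases was 14 bases (XTH25 and XTH30), and 514 pairs had no run of 12 bases. The 73 bases were counted only up to the gene starts. In windows from 250 bases before to 50 bases after the starts, the longest run shared by XTH17 and XTH18 was 80 bases. The 73-base run was found at 2 places in the genome, these 2. It holds the sequence CATGTG, 63 bases before each start, a letter sequence that PIF growth factors are known to bind. XTH19 and XTH20 hold neither the run nor CATGTG in their 200 bases. This comparison was made after the values of XTH17 and XTH18 had been seen.

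Matches to 6 motifs were counted on both strands in windows from 250 bases before to 50 bases after the gene start, in 26718 genes. CACGTG, the G-box that PIF and HY5 factors are known to bind, was in 0 of 33 members and in 7.79% of all windows. CATGTG was in 5 members (15.2%), XTH17, XTH18, XTH25, XTH26 and XTH33, and in 12.965% of all windows. TGTCTC, known from auxin response elements, was in 3 members (9.09%) and 14.1% of all windows, and its relative TGTCGG in 2 members (6.06%) and 5.12%. CGTGTG, known from brassinosteroid response elements, was in 4 members (12.1%) and 6.51% of all windows, and CGTGCG in 0 members and 1.97%. CGTGTG and CACGTG can overlap by part of their letters. XTH25 held both CATGTG and CGTGTG, and no member held more than 2 of the motifs.

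The other members known from roots did not pass the test. XTH26, which is known from root hairs, was read at 1.66 and 1.66 RPKM in CNT1 and at 0.843 and 2.203 RPKM in CNT1-G283E. The CNT1-G283E libraries lay on either side of CNT1, with a log2 fold change of 0.13 and a 95% interval of -0.41 to 0.67. XTH12 and XTH13, which lie close together on chromosome 5 with 1 other annotated gene between them and have 89.4% coding identity, had log2 fold changes of -0.25 (-0.57 to 0.08) and -0.18 (-0.71 to 0.34). XTH14 was at 14.5 and 16.1 RPKM in CNT1 and 16.6 and 21.2 RPKM in CNT1-G283E (limma adjusted p = 0.0555, log2 fold change -0.28, interval -0.54 to -0.03), and XTH21, which is known for primary root growth, was at 1.29 to 1.59 RPKM in the 4 libraries (adjusted p = 0.371).

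The CNT1-G283E replicates differed from each other by unequal amounts in the root genes. Replicate 2 was above replicate 1 by 2.61-fold for XTH26, 2.15-fold for XTH13, 1.42-fold for XTH12 and 1.28-fold for XTH14, and by 1.11-fold for XTH21. Among XTH17, XTH18, XTH19 and XTH20 the same ratio was 1.10, 1.12, 1.22 and 0.914. Of 7 root hair markers, 6 were higher in CNT1-G283E replicate 2 than in replicate 1, and their summed level was 46.9 against 32.5 RPKM, beside 36.1 and 33.9 RPKM in CNT1. None of the 7 root hair markers was called (0 higher, 0 lower, median -0.11), while all 8 markers of the root endodermis fell, with a median log2 fold change of -1.40. Among all genes tested, 31.1% rose and 29.0% fell. The summed endodermis markers were at 253 and 260 RPKM in CNT1 and at 721 and 778 RPKM in CNT1-G283E. Summed XTH17 to XTH20 stood at 338 and 330 RPKM in CNT1 and at 1437 and 1609 RPKM in CNT1-G283E. The part of root tissue in the values of these genes was not tested. Without CNT1-G283E replicate 1, XTH12 (log2 fold change -0.44), XTH13 (-0.55) and XTH14 (-0.45) were called lower, as were 3 root hair markers, and without CNT1-G283E replicate 2 XTH26 was called higher (0.53), as was 1 root hair marker.

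**Figure D4:**
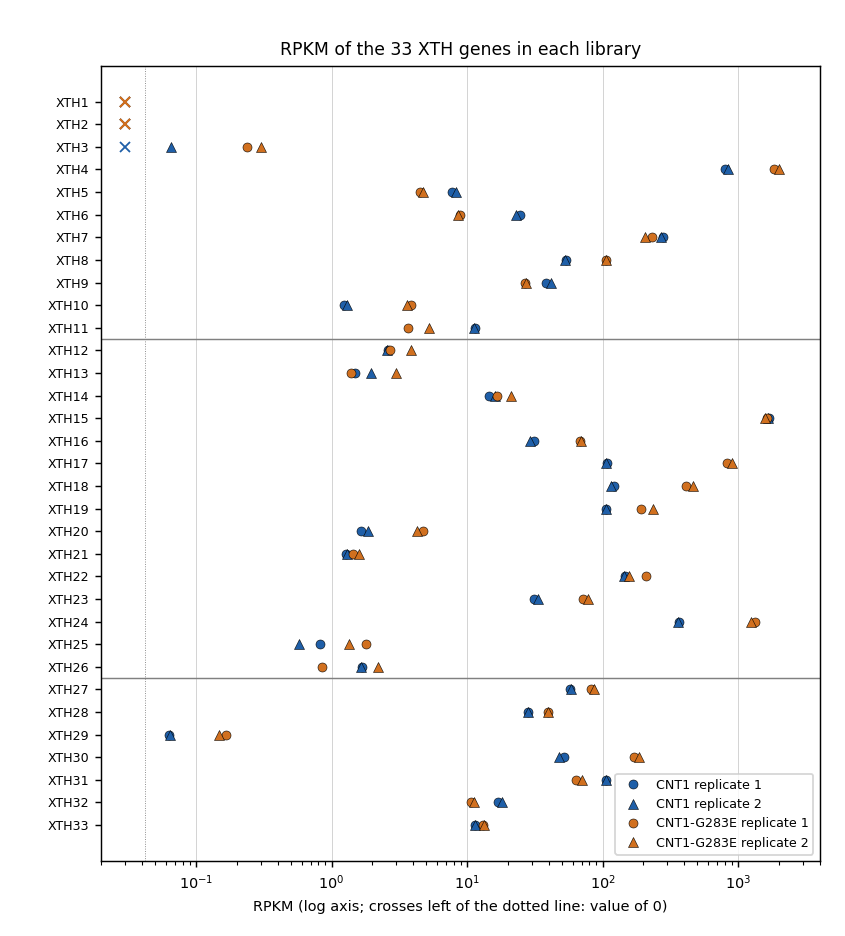
RPKM (x axis, log scale) of each of the 33 XTH genes (y axis) in each library, with colour for the group and symbol for the replicate, and crosses for values of 0. Levels span from 0 for XTH1 and XTH2 to 2004 RPKM for XTH4, and the groups lie far apart for XTH17, XTH18, XTH24 and XTH30.

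The remaining group II members that were called fell as well. XTH24 (AT4G30270, chromosome 4, 14819192 to 14820595 in TAIR10.1), also named MERI5, was read at 365 and 359 RPKM in CNT1 and at 1329 and 1242 RPKM in CNT1-G283E. Both CNT1-G283E libraries were high, the fall was 3.55-fold, and the log2 fold change was -1.83 ± 0.048 (SE, limma adjusted p = 1.3e-07). XTH23, also named XTR6, was read at 31.0 and 33.4 RPKM in CNT1 and at 71.2 and 78.3 RPKM in CNT1-G283E (log2 fold change -1.19 ± 0.060, SE, limma adjusted p = 1.90e-06). XTH22, known as TCH4 for its induction by touch and also induced by brassinosteroid, was at 146 and 145 RPKM in CNT1 and at 208 and 156 RPKM in CNT1-G283E. The XTH22 call rested on a small gap between the groups (log2 fold change -0.31 ± 0.111, SE, limma adjusted p = 0.0427) and was lost with either CNT1 library left out. Its log2 fold change was -0.11 without CNT1-G283E replicate 1 and -0.51 without CNT1-G283E replicate 2. XTH25 was near the low-value filter of 1 RPKM, at 0.828 and 0.571 RPKM in CNT1 and 1.78 and 1.35 RPKM in CNT1-G283E (limma adjusted p = 0.0086). It was detected in all 4 libraries, and its call was lost without CNT1 replicate 2. The log2 fold change of XTH25 was -0.59 with a pseudocount of 1 and -1.07 with a pseudocount of 0.1.

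Tandem neighbours did not always share a call. On chromosome 4, XTH23 and XTH14 lie on the same strand with 363 bases between them, and XTH23 fell by 1.19 on the log2 scale while XTH14 was at -0.28 and was not called. XTH14 had the same sign, lay near the threshold (limma adjusted p = 0.0555) and was called lower in some alternative fits. On chromosome 5, XTH12, XTH13, XTH25 and XTH22 lie in that order on the minus strand, and the XTH25 and XTH22 genes, 565 bases apart, differ from each other by over 2 orders of magnitude in level. Only XTH25 and XTH22 of these were called, and both calls were lost in some alternative fits. XTH24, XTH18 and XTH19, again neighbours on chromosome 4 with no annotated gene between them, all fell at least 2-fold, and their summed level was 593 and 581 RPKM in CNT1 and 1934 and 1939 RPKM in CNT1-G283E. The differences in fold between neighbours were not tested. Of the 9 tested members in tandem clusters 6 fell and 0 rose, and of the 20 outside clusters 10 fell and 7 rose, beside 29.0% and 31.1% of all genes. XTH25, counted among the 6, passed the low-value filter only through the CNT1-G283E libraries, so it could hardly enter the test except as a fall. The 9 in clusters all belong to group II, in which 0 members rose, so position and group cannot be told apart.

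**Figure D5:**
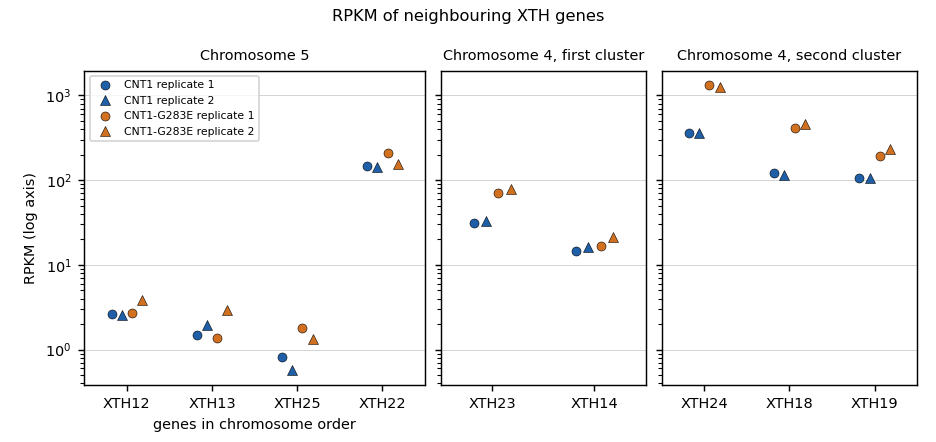
RPKM (y axis, log scale) of neighbouring XTH genes in chromosome order (x axis) in each library. In the cluster of XTH24, XTH18 and XTH19 the CNT1-G283E libraries lie above the CNT1 libraries at every gene, while at XTH13 the groups overlap.

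Group I divided, with 5 of its 8 tested members higher and 3 lower in CNT1. Of all genes tested, 31.1% were higher and 29.0% lower, and the difference of group I from them was not tested. XTH6 (AT5G65730, chromosome 5, 26298728 to 26300529 in TAIR10.1) had 24.8 and 23.0 RPKM in CNT1 and 8.88 and 8.62 RPKM in CNT1-G283E. Both CNT1 libraries were high, and the 2.73-fold rise (log2 fold change 1.35 ± 0.065, SE, limma adjusted p = 1.45e-06) was the highest of the 29 tested members. Its relative XTH7, with 72.3% coding identity, was at 281 and 271 RPKM in CNT1 and at 230.2 and 205 RPKM in CNT1-G283E, a 1.27-fold rise (limma adjusted p = 0.00137). XTH11 was read at 11.3 and 11.3 RPKM in CNT1 and at 3.67 and 5.24 RPKM in CNT1-G283E, 2.54-fold higher in CNT1 (log2 fold change 1.19 ± 0.132, SE, limma adjusted p = 0.000135). XTH9, known from shoot apices, was 1.47-fold higher, at 38.1 and 41.3 RPKM against 26.96 and 27.2 RPKM (log2 fold change 0.54 ± 0.054, SE, limma adjusted p = 8.06e-05).

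XTH4 and XTH5, relatives with 71.9% coding identity, changed in opposite directions. XTH4 (AT2G06850, chromosome 2, 2763449 to 2765743), also named EXGT-A1 and known from expanding tissues, was read at 807 and 841 RPKM in CNT1 and at 1827 and 2004 RPKM in CNT1-G283E. It was the highest member in CNT1-G283E and fell 2.33-fold (log2 fold change -1.22 ± 0.058, SE, limma adjusted p = 1.41e-06). XTH5 was read at 7.73 and 8.33 RPKM in CNT1 and at 4.46 and 4.73 RPKM in CNT1-G283E, and rose by 0.69 on the log2 scale (SE 0.085, limma adjusted p = 0.00025). The difference between the 2 changes was not tested, and their 95% intervals were -1.35 to -1.08 for XTH4 and 0.49 to 0.89 for XTH5. XTH8 fell from 105.6 and 105.8 RPKM to 53.5 and 52.7 RPKM, and XTH10 from 3.84 and 3.62 RPKM to 1.22 and 1.301 RPKM (log2 fold change -0.98 and -1.06, limma adjusted p = 6.26e-07 and 7.32e-05). The 1 added before the log makes changes at low levels look smaller. By the ratio of mean RPKM, XTH8 was 1.99-fold and XTH10 2.96-fold lower in CNT1. With a pseudocount of 0.1 the log2 fold changes were -0.99 and -1.49.

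In group III, the called members of its known branches went in different directions. XTH31 (AT3G44990, chromosome 3, 16446935 to 16448844 in TAIR10.1) and XTH32 (AT2G36870), of the branch with hydrolase activity, both rose. XTH31 was read at 106 and 106 RPKM in CNT1 and at 64.0 and 70.2 RPKM in CNT1-G283E, a 1.58-fold rise (log2 fold change 0.65 ± 0.051, SE, limma adjusted p = 1.98e-05). XTH32 was read at 17.04 and 18.1 RPKM in CNT1 and at 10.7 and 11.2 RPKM in CNT1-G283E, a 1.60-fold rise (log2 fold change 0.63 ± 0.065, SE, limma adjusted p = 9.19e-05). The 4 tested members of the other branch, XTH27, XTH28, XTH30 and XTH33, fell. XTH29 of that branch was not tested, and the XTH33 call was lost with any library left out. Of all genes tested, 31.1% rose and 29.0% fell, and the difference between the branches was not tested. XTH30 (AT1G32170, chromosome 1, 11575320 to 11578030 in TAIR10.1) stood at 51.9 and 48.0 RPKM in CNT1 and at 171 and 185 RPKM in CNT1-G283E, a 3.57-fold fall (log2 fold change -1.81 ± 0.055, SE, limma adjusted p = 2.15e-07).

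XTH27, also named EXGT-A3 and known from leaf veins, and XTH28, known from stamen filaments, are 77.7% identical in coding sequence and had log2 fold changes of -0.53 and -0.47. XTH27 was at 57.3 and 58.1 RPKM in CNT1 and 81.6 and 86.0 RPKM in CNT1-G283E, and XTH28 at 28.2 and 28.1 against 39.2 and 39.5 RPKM. XTH33 was at 11.5 and 11.5 RPKM in CNT1 and 13.1 and 13.3 RPKM in CNT1-G283E (limma adjusted p = 0.0379), a call lost with any library left out. XTH17 and XTH31, whose proteins are known to interact in root cells, stood at nearly the same level in CNT1 (107 ± 1.88 and 106 ± 0.108 RPKM, SD, n = 2) and far apart in CNT1-G283E (867 ± 56.7 and 67.1 ± 4.41 RPKM).

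The order of levels within the family shifted accordingly. XTH15, XTH4 and XTH24 were ranks 1 to 3 in CNT1, and XTH4, XTH15 and XTH24 in CNT1-G283E. XTH7 was rank 4 in CNT1 and 6 in CNT1-G283E, XTH17 was rank 7 and 4, and XTH31 was rank 9 and 14. In CNT1, XTH17 and XTH19 were neighbours in the order with overlapping values, as were XTH23 and XTH16. In CNT1-G283E, XTH7, XTH19, XTH22 and XTH30 followed each other with values that overlapped from each to the next, as did XTH16 and XTH31.

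The 4 members under the filter were at or near 0. XTH1 and XTH2, neighbours on chromosome 4, were at 0 in all 4 libraries, where the floor of 3 reads corresponds to at most 0.126 RPKM for XTH1 and 0.139 RPKM for XTH2. XTH3, whose enzyme is known to join xyloglucan and cellulose chains in vitro, had 0 and 2 reads in CNT1 and 7 and 8 reads in CNT1-G283E. XTH29 had 2 and 2 reads in CNT1 and 5 and 4 reads in CNT1-G283E. Exact 95% counting intervals overlapped between every library of each group for XTH29 (0.242 to 7.22 reads at 2 reads and 1.62 to 11.7 at 5 reads). They overlapped in the same way for XTH3 (0 to 3.69 reads at 0 reads and 3.45 to 15.8 at 8 reads). Without the low-value filter, XTH3 was called lower in CNT1 (log2 fold change -0.30, limma adjusted p = 0.0137) and XTH29 was not called (-0.12, adjusted p = 0.107).

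Genes that build or trim xyloglucan were called in both directions. Of 15 synthesis genes, 5 rose, 6 fell and 4 were not called, beside 31.1% of all genes that rose and 29.0% that fell. These shares lie near the background and are no result about the list. None of the 15 was called with a 2-fold change, and their summed level was 419 and 423 RPKM in CNT1 and 420 and 429 RPKM in CNT1-G283E. The xylosyltransferase genes XXT1, XXT2 and XXT5 rose 1.75-fold, 1.23-fold and 1.27-fold (limma adjusted p = 4.99e-06, 0.000938 and 0.000308). CSLC4, which makes the glucan backbone, was read at 51.5 and 51.6 RPKM in CNT1 and at 81.8 and 83.96 RPKM in CNT1-G283E, a log2 fold change of -0.67 ± 0.041 (SE, limma adjusted p = 4.87e-06). AXY4, which acetylates xyloglucan side chains, and the galactosyltransferase gene XLT2 fell by 0.66 and 0.36 on the log2 scale. Among 5 trimming enzymes, the alpha-xylosidase gene XYL1 and the galactosidase gene BGAL10 fell (log2 fold change -0.44 and -0.64), BGLC1, a glucosidase, and AXY8, a fucosidase, rose (0.40 and 0.16), and BGLC3 was not called. The median log2 fold change was 0.02 for synthesis and 0.16 for trimming genes, beside -0.31 for the tested XTH genes and 0.025 for all genes. The difference between these lists and the XTH genes was not tested.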

How the data were processed

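Poly(A) RNA from seedlings was made into libraries by Illumina protocols (per the labels). Bowtie2 2.2.2 and TAIR10 are named in the submitters' processing notes. Strand and the handling of multi-mapped reads were not given in the sources used here. As deposited by the authors, there was 1 table of RPKM for each library, with 27416 gene models. RPKM values are not counts, so the main test was on the log scale, and reads recovered from the values served only in an alternative with limma-voom. Values were taken as log2(RPKM + 1), filtered at 1 RPKM in at least 2 libraries and fitted with limma 3.58.1 in R 4.3.3 (group as the only term, intensity trend, two-sided, Benjamini-Hochberg adjustment over 19201 genes). The fit was also run on simulated reads with a spread set in advance and few changed genes. That run does not measure the error of the calls made here.

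Library denominators were the commonest value of 1 read at annotated lengths, and at these all rows above 0 (100.0%) were whole reads within 0.001, 4934 at an annotated and 19426 at a fitted length, which fixes reads up to a whole-number factor. The recovered reads summed to 103.2% of the denominators. Intervals and the floor of 3 counts cover counting error only.

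Names, coordinates and sequences are from the RefSeq annotation of TAIR10.1, which matched 26719 rows; it carries the same nuclear chromosomes as TAIR10. Identities came from global alignments in Biopython 1.88, and because no protein table was used, coding bases replaced the planned protein comparison. Members, lists and tests were chosen with earlier results of these data known. Named in full were the 6 called members with the largest rise and the 10 with the largest fall, every other member being given by its values, and up to 3 xyloglucan genes per list and direction by adjusted p.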

Additional observations from a re-analysis of the deposited data

How the results depend on the processing

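Under the 12 alternatives (pseudocount 0.1, all genes unfiltered, a minimum mean of 5 RPKM, quantile and median-of-ratios scaling, no intensity trend, the replicate block, limma-voom on recovered reads and leaving out each library), 20 of the 23 called members kept their call wherever they were tested. The others were XTH22, XTH25 and XTH33. XTH22 was not called without the filter (adjusted p = 0.11), without the trend (0.114), without CNT1 replicate 1 (0.108) or without CNT1 replicate 2 (0.117). XTH25 was lost without CNT1 replicate 2 (0.0582). XTH33 was lost with limma-voom (0.0731) and in the 4 leave-one-out fits (0.0553 to 0.163). XTH14 was called lower with quantile (0.0444) and median-of-ratios (0.0366) scaling and with limma-voom (0.0373). Deviations of same-numbered libraries from their group means had a correlation of -0.05. Whether such libraries shared a culture or batch is not given and cannot be read from that value. With the replicate block, 5791 genes were higher and 5423 lower, XTH14 was called (0.0137), XTH33 was not (0.0579), and the other members kept their calls. With a library left out, 7 to 8 members were higher and 13 to 18 lower. XTH13 ran from -0.55 to 0.18 and XTH26 from -0.27 to 0.53 over these fits, changing sign. In them, 0 to 1 root hair markers were higher and 0 to 3 lower, 0 to 1 epidermis markers were higher and 0 to 1 guard cell markers lower. The epidermis marker called higher was not called with median-of-ratios scaling (0 higher) or without the trend (0 higher), and the guard cell marker called lower was removed by the 5 RPKM filter (0 lower). The median log2 fold change of all genes was between 0.0047 and 0.0362 under all alternatives. With 1 library left out the lone sample was assumed to vary like the other group. XTH13, XTH21, XTH25 and XTH26 rest on 17 to 62 reads a library. The cause of the changed calls was not tested.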
